A study of Mus musculus with 2 samples.

Results

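The genes described here are 37 genes of the cell division cycle, measured by single-cell RNA sequencing in mouse skin. They were chosen by symbol among the 31053 genes of the count tables and form 4 groups by role. The group of 17 G1/S genes serves entry into and passage through DNA replication, the group of 17 G2/M genes serves mitosis, Ccnd1 and Ccnd2 are D-type cyclins, and Cdkn1a encodes the inhibitor p21. All 37 symbols were found. The skin came from C57Bl6 mice of 8 weeks, male and female by the labels, that received an intradermal injection. One group received 100 ng of sitagliptin, an inhibitor of the cell-surface peptidase DPP4, in 100 µl of phosphate-buffered saline (PBS), and the control group received PBS alone. A time of 48 h is named without the event from which it runs, and the title of the series concerns activation and regeneration of hair follicles. Each treatment has 1 library, and the labels name no transgene, deletion or other allele. The sources used here do not say how many mice a library holds. No test was therefore possible, and every interval below is a 95% interval for counting error alone, without the variation between animals or preparations.

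A cell that commits to division first uses D-type cyclins with Cdk4 or Cdk6 to inactivate the retinoblastoma proteins. Released E2F factors then raise E-type cyclins, the Mcm helicase subunits and the enzymes of nucleotide supply, and p21 holds this step back. Later the DREAM and B-Myb complexes and FoxM1 control the genes of mitosis, through CHR elements and CCAAT boxes in their promoters. In the epidermis, division belongs mainly to the basal layer and to parts of the hair follicle, and cells that move to the suprabasal layers leave the cycle.

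The promoters of the members were searched for the words that name this control, and those of 6 members are shown because they hold such words and their RNAs are followed below. RefSeq promoter entries on the GRCm38.p6 build were found for 29 of the 37 members and for 27025 genes in all, and the 250 bases before the start were searched on both strands. No entry was used for Mcm4, Aurkb, Ccnd2, Ccne2, Gins2, Ccnd1, Ccna2 and Tpx2. The CHR words TTTGAA or TTCGAA stood in 6 of 14 G2/M promoters (42.9%), in 2 of 14 G1/S promoters (14.3%) and in 17.4% of all promoters. CCAAT stood in 13 of 14 G2/M promoters (92.9%), in 9 of 14 G1/S promoters (64.3%) and in 34.5% of all. The E2F words, TTCCCGC or TTCGCGC or TTGCCGC or TTGGCGC, stood in 4 of 14 G2/M promoters (28.6%), in 7 of 14 G1/S promoters (50%) and in 7.97% of all. All 6 G2/M promoters with a CHR word also held a CCAAT, as did the 2 G1/S promoters with a CHR word. This pair stood in 42.9% of G2/M promoters, 14.3% of G1/S promoters and 6.21% of all promoters. The promoters of Ccne1, Tyms, Cdt1, E2f1, Birc5 and Cdkn1a held none of these words. A match is a description of letters and not a shown binding site. The sequences run 5′ to 3′ along the gene and end at the base before the start, with CHR, CCAAT and E2F words of either strand in capitals. Reverse complements therefore appear, such as ATTGG for CCAAT or TTCAAA for TTTGAA, and 2 E2F words can overlap.
Top2a (chr11:99024190-99024439, minus strand): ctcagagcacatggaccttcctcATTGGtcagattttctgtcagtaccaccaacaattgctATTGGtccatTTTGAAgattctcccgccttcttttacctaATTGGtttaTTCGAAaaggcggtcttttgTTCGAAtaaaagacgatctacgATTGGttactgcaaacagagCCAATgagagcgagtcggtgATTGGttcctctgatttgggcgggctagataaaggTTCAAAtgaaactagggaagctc
Mki67 (chr7:135716380-135716629, minus strand): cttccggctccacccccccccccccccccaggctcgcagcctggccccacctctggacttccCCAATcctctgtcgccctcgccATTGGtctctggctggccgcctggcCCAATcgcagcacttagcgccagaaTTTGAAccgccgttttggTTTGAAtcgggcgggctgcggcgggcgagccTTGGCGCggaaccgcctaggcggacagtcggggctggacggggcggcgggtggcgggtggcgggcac
Ccnb2 (chr9:70421555-70421804, minus strand): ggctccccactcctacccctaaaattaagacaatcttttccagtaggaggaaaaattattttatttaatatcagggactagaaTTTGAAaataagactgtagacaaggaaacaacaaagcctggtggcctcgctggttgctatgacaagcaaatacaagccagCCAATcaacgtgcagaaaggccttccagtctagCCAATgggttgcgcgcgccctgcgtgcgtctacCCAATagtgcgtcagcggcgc
Rrm1 (chr7:102441445-102441694, plus strand): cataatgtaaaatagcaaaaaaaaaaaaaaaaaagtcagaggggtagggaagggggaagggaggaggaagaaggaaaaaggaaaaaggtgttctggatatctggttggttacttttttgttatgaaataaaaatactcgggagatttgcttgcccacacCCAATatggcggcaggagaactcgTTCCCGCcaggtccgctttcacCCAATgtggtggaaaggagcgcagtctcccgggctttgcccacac
Mcm5 (chr8:75109259-75109508, plus strand): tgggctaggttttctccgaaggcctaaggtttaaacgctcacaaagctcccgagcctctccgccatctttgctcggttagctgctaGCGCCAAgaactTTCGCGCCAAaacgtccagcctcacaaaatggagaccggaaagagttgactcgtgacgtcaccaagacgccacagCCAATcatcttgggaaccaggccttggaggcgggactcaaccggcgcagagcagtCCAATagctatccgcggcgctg
Mcm6 (chr1:128359706-128359955, minus strand): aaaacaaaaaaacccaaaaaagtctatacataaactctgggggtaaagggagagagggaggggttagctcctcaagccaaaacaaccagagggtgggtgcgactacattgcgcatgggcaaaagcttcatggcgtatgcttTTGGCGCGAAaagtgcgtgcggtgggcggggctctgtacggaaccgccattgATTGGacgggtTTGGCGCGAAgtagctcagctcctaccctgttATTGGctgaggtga
Top2a, the topoisomerase that untangles sister chromatids, had 4 CHR words and 6 CCAAT words. Mki67, the chromosome surfactant used as a proliferation mark, had 2 CHR words and 3 CCAAT words, and Ccnb2, a mitotic B-type cyclin, had 1 and 3. The helicase subunits Mcm5 and Mcm6 had 3 and 4 E2F words and no CHR word. Rrm1, the large subunit of ribonucleotide reductase, had 1 E2F word, 67 bases before the start.

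The 2 libraries differ in ways that touch every comparison below. In each library's file names stands the initial of the other treatment, so the libraries are named here by their label alone, PBS-labelled and sitagliptin-labelled. Barcodes with at least 500 genes, at least 1000 unique molecular identifiers (UMIs) and at most 10% mitochondrial UMIs were kept, which left 5932 of 10456 and 18380 of 22085 barcodes. Kept barcodes had a median of 6902.5 (PBS-labelled) and 2197 UMIs (sitagliptin-labelled), and the libraries share 75 barcodes. Cells were clustered without the cell cycle genes and named by markers, and classes are given as "keratinocyte" of a layer only by those markers. Basal keratinocytes numbered 1202 (PBS-labelled) and 1338 (sitagliptin-labelled), suprabasal 1180 and 6604, upper follicle 1022 and 2037, and outer root sheath/bulge 382 and 2056. Macrophages or monocytes numbered 1052 and 44 and fibroblasts 479 and 59, so these were described in the PBS-labelled library alone. A cluster of 4484 keratinocytes with a median of 1551 UMIs could not be given a layer and held 15 cells of the PBS-labelled library. The suprabasal class is filled by different clusters in the 2 libraries. In the sitagliptin-labelled library 3083 of its cells lay in a cluster led by Dkkl1 and Ivl and 1209 in one led by Hrnr and Lor, and these held 22 and 20 cells of the PBS-labelled library. In the PBS-labelled library most lay in clusters led by Krt6b, by Mt4 and by Dkkl1, Mboat2, Dnase1l3 and Krt77. The last of these held 205 PBS-labelled and 545 sitagliptin-labelled cells, so Dkkl1 led clusters of both kinds. A cluster mostly of 1 library may be that library and not a type. Levels are in CPM, a gene's UMIs scaled to a fixed total for each class and library, and fewer dividing cells and less RNA per cell cannot be told apart in them.

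Basal keratinocytes held the highest summed level of G2/M RNA among the classes set side by side in each library. In the PBS-labelled library the 17 G2/M genes summed to 3186 CPM in basal, 1745 in upper follicle, 816 in macrophages or monocytes, 662 in suprabasal, 634 in outer root sheath/bulge keratinocytes and 368 in fibroblasts. Suprabasal and outer root sheath/bulge cells are neighbours in that order whose levels lie close together. The 17 G1/S genes summed to 848 CPM in basal, 696 in upper follicle, 690 in macrophages or monocytes, 468 in outer root sheath/bulge, 295 in suprabasal keratinocytes and 268 in fibroblasts. The order of the classes differed between the phases only in that suprabasal and outer root sheath/bulge cells changed places. Macrophages followed upper follicle cells in both phases, closely so in G1/S RNA. In the sitagliptin-labelled library the G2/M sum was 3734 CPM in basal, 1613 in upper follicle, 1413 in the keratinocytes without a layer, 1195 in sebocytes, 891 in suprabasal and 570 in outer root sheath/bulge cells.

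**Figure D1:**
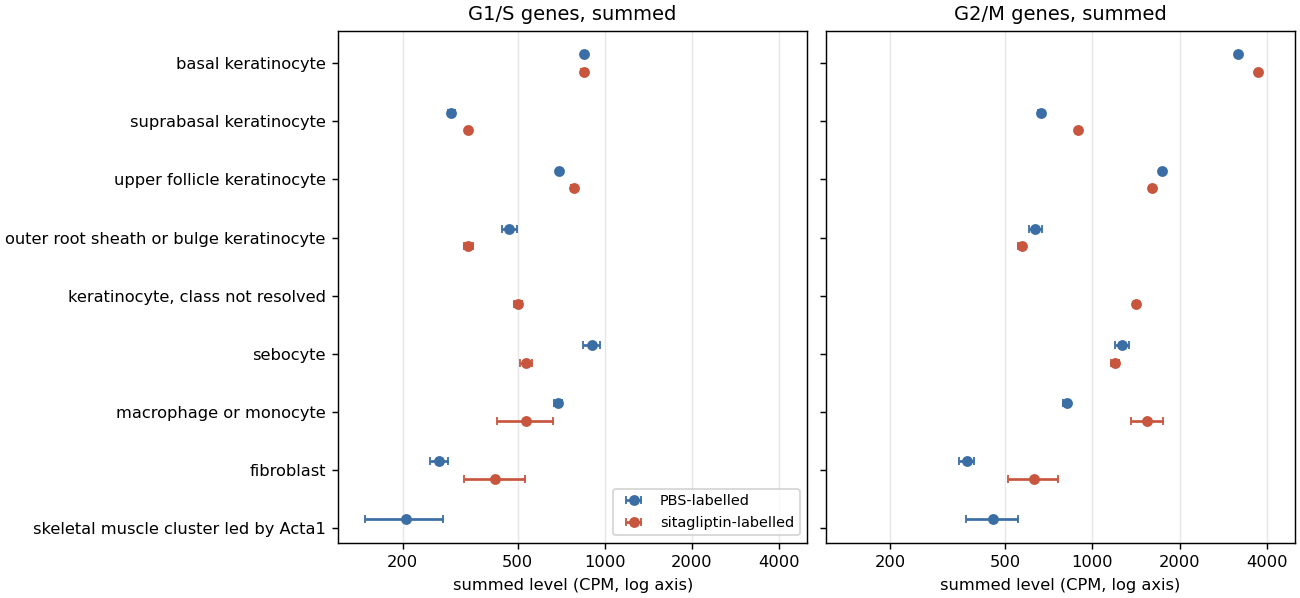
Summed level in CPM on a log axis of the 17 G1/S genes (left) and the 17 G2/M genes (right) by cell class, with 1 point per library and bars for the 95% counting interval. Basal keratinocytes are highest for G2/M in both libraries, at 3186 and 3734 CPM, and the G1/S points span a narrower range than the G2/M points.

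Suprabasal keratinocytes had less RNA of nearly every member than basal cells of the same library and more Cdkn1a. In the PBS-labelled library Cdkn1a stood at 433 CPM in suprabasal and 111 CPM in basal cells, 3.89 times as much, and in the sitagliptin-labelled library the ratio was 3.45. The other 36 members were lower in suprabasal cells by at least 1.5-fold, with 1 CPM added, in the PBS-labelled library. Among all 12152 genes measured there 22.5% were lower and 13.4% higher by that rule, and all 37 members passed the minimum of 20 UMIs. The G2/M genes moved as a narrow block, from 0.180 of the basal level for Cdc20, which activates the anaphase-promoting complex, to 0.232 for Plk1, a mitotic kinase. The G1/S genes were spread more widely, from 0.266 for Mcm5 to 0.587 for Pcna, the sliding clamp that replication shares with DNA repair. Ccnd1 and Ccnd2, at 51.5 and 145 CPM, stood at 0.320 and 0.433 of the basal level. The basal keratins Krt14 and Krt5 together stood at 0.294 of the basal level in the same cells, and the part of RNA from other cells in these low levels was not tested.

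Upper follicle keratinocytes kept more G1/S than G2/M RNA relative to basal cells. In the PBS-labelled library their G1/S sum was 0.821 (0.797 to 0.845) and their G2/M sum 0.548 (0.538 to 0.557) of the basal level. Over 12 alternatives the G2/M ratio lay between 0.351 and 0.566. Past 1.5-fold, 20 members were lower and 1 was higher than in basal cells, beside 9.61% lower and 15% higher among 12146 genes, and 16 of the 20 were G2/M genes. The G2/M ratios ran from 0.412 for Ube2c, the ubiquitin-conjugating enzyme of mitotic exit, to 0.751 for Mki67, and the G1/S ratios from 0.519 for Ccne1 to 1.2 for E2f1. The D-type cyclins went in opposite directions, with Ccnd2 at 489 CPM against 335 in basal cells (1.46 times) and Ccnd1 at 88.7 against 161 (0.551). Cdkn1a was the higher member, at 183 against 111 CPM.

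Outer root sheath/bulge keratinocytes, taken as a whole class, combined a low G2/M level with a high Ccnd1 level in the PBS-labelled library. Their G2/M sum was 0.199 (0.189 to 0.209) of the basal level, between 0.0799 and 0.353 over 12 alternatives, with single genes between 0.134 for Ccnb2 and 0.242 for Top2a. Ccnd1, the cyclin that growth signals raise, stood at 238 CPM against 161 in basal cells (1.48 times), and Gins2, a subunit of the replicative helicase, at 1.05 of the basal level. Past 1.5-fold, 29 members were lower and 0 higher, beside 13.2% lower and 24.3% higher among 11583 genes. In the sitagliptin-labelled library Ccnd1 over the whole class was 124 CPM, 0.787 of the basal level. The class is filled by different clusters in the 2 libraries. Its cluster led by Fam13a and Cldn10, with 85 of the 382 cells (PBS-labelled) and 167 of 2056 (sitagliptin-labelled), had Ccnd1 at 404 and 399.9 CPM, above the basal 161 and 158 CPM in both libraries. The clusters led by Krt24 and by Aspn, at 203 and 263 CPM, were above the basal level in the PBS-labelled library. In the sitagliptin-labelled library they stood at 110 and 121 CPM. The cluster led by Ramp1, with 59 PBS-labelled and 308 sitagliptin-labelled cells, had Ccnd1 at 40.7 and 36.9 CPM, below the basal level in both libraries.

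Macrophages or monocytes held G1/S RNA somewhat below the basal level and far less G2/M RNA. In the PBS-labelled library their G1/S sum was 0.813 (0.784 to 0.843) and their G2/M sum 0.256 (0.249 to 0.264) of the basal level. Over 12 alternatives the G1/S ratio lay between 0.587 and 0.917 and the G2/M ratio between 0.176 and 0.257. Past 1.5-fold, 4 members were higher and 22 lower than in basal keratinocytes, beside 28.3% higher and 22.7% lower among 12365 genes, shares so large that the direction of single genes is read only as a level. The 4 were E2f1, the transcription factor of G1/S genes, at 32.2 against 15.2 CPM, Ccne1 at 15.5 against 9.99, Ccnd1 at 264 against 161 and Cdkn1a at 246 against 111. Tyms, which makes thymidylate, was lowest among the G1/S genes at 0.350 of the basal level, and Cdc20 was lowest among the G2/M genes at 0.152. Fibroblasts were lower than basal keratinocytes for 35 members and higher for 0 by that rule, beside 24% lower and 29.1% higher among 12177 genes. Their G2/M ratios ran from 0.0851 for Cdk1, the mitotic kinase, to 0.166 for Ccna2, and E2f1 (16.4 CPM, 1.08) and Cdkn1a (142 CPM, 1.27) stood at or above the basal level. Macrophages exceeded fibroblasts for all 37 members, 35 of them by at least 1.5-fold, beside 25.9% of 12233 genes (21.5% were lower), from 1.17 for Ccnd2 to 5.81 for Ccne1, with Ccnd1 at 5.33.

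Keratin RNA was also counted in classes that are not keratinocytes. Krt14 and Krt5 together stood at 0.122 of the basal level in macrophages, at 0.0925 in fibroblasts and at 0.0659 in a skeletal muscle cluster led by Acta1 (55 cells, median 2442 UMIs). The G2/M sum in that muscle cluster was 0.142 (0.115 to 0.174) of the basal level and in fibroblasts 0.116 (0.109 to 0.123), intervals that overlap, and the fibroblast ratio lay between 0.0563 and 0.127 over 12 alternatives. The other muscle cluster, led by Myh4 and Ttn with Krt6b among its leading genes, held more, so that all 175 muscle cells together stood at 848 CPM of G2/M RNA. In fibroblasts 91.6% of Mki67 UMIs lay in 40 of 479 cells (8.35%), which held 16.4% of all UMIs, and a like set of 41 cells held 52.0% of Krt14 UMIs. Of the G2/M signal of macrophages, 39.8% of UMIs lay in the 2.66% of cells with at least 5 G2/M UMIs, as given below. The part of free RNA or doublets in these levels was not tested.

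**Figure D2:**
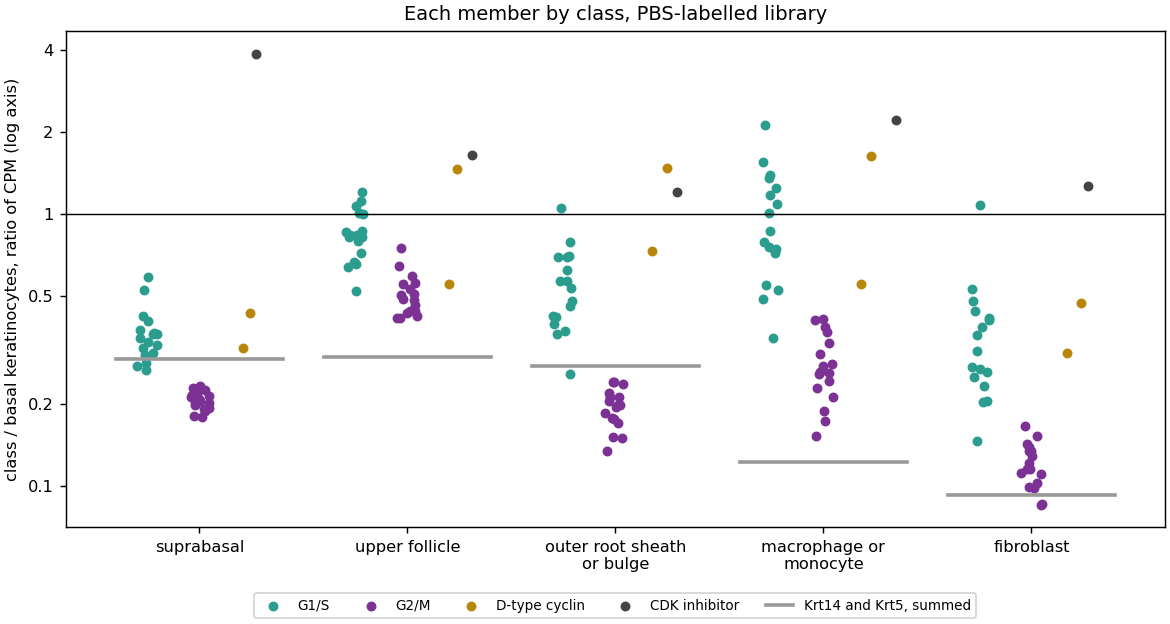
Ratio of CPM to basal keratinocytes on a log axis for each member in 5 classes of the PBS-labelled library, coloured by role, with a grey line for the summed keratins Krt14 and Krt5. G2/M genes form a tight band near 0.2 in suprabasal and outer root sheath/bulge cells, and Cdkn1a lies above 1 in all 5 classes.

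The G2/M RNA of basal keratinocytes was gathered in a minority of cells. Each cell was thinned at random to 1000 UMIs, the minimum of the filter, so no cell was left out. In basal cells the G2/M genes then gave a mean of 2.67 UMIs per cell (PBS-labelled) and 2.80 (sitagliptin-labelled), with a variance 5.49 and 5.57 times the mean. At least 2 G2/M UMIs were found in 39.6% (36.8 to 42.4) and 41.1% (38.5 to 43.8) of basal cells, intervals that overlap, and without thinning in 58.2% and 55.8%. At least 5 were found in 25.2% and 25.6%, and those cells held 79.6% and 79.5% of all G2/M UMIs. These shares form a range with no gap at the limit, since 64 and 61 cells had exactly 4 and 43 and 56 cells exactly 5. At the same depth at least 2 were found in 1.82% (0.0460 to 9.72) of cells of the muscle cluster led by Acta1 and in 25.8% (18.3 to 34.6) of the 120 cells of the muscle cluster led by Myh4 (median 2250 UMIs). The median before thinning was 8140 and 4594.5 UMIs in basal cells.

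Outside basal cells the gathering differed by class and by library. In suprabasal cells at least 2 G2/M UMIs were found in 10.7% of cells of the PBS-labelled and 26.8% of the sitagliptin-labelled library, while at least 5 were found in 2.12% and 2.03%. The variance over the mean was 2.93 and 1.68. It was 1.32 and 1.17 in the sitagliptin-labelled cells of the clusters led by Dkkl1 and Ivl and by Hrnr and Lor, which hold few PBS-labelled cells. In the 4 suprabasal clusters with at least 50 cells in each library it went from 2.93 to 2.76, from 2.73 to 2.10, from 1.34 to 2.05 and from 0.932 to 1.71 between the PBS-labelled and sitagliptin-labelled cells. In the sitagliptin-labelled keratinocytes without a layer 39.7% of cells had at least 2 and 3.06% at least 5, with a variance 1.37 times the mean, near the 1 that evenly spread counts would give. Blood endothelial cells of the same library (78 cells, median 1575 UMIs) had at least 1 G2/M UMI in 70.5% and at least 5 in 1.28%, with a variance 1.12 times the mean. T cells or innate lymphoid cells had at least 2 in 9.09% (4.24 to 16.6) of 99 PBS-labelled and 32.4% (21.8 to 44.5) of 71 sitagliptin-labelled cells, at similar medians of 1812 and 1838 UMIs and with a variance 2.59 and 2.68 times the mean. Lymphatic endothelial cells (51 cells) and muscle (175 cells) of the PBS-labelled library had 0.980 and 1.80 times. Low G2/M counts were thus frequent in several unrelated classes of the sitagliptin-labelled library, but outer root sheath/bulge cells there had at least 2 in 7.30%. In the PBS-labelled library at least 2 were found in 19.2% of sebocytes, 19.6% of dendritic or Langerhans cells and 18.3% of muscle cells, against 3.97% of fibroblasts. A share with at least 2 UMIs outside basal and upper follicle cells is not read as a share of dividing cells. Upper follicle cells had at least 5 in 11.9% and 9.52%, outer root sheath/bulge cells in 2.09% and 1.41%, and PBS-labelled macrophages in 2.66%.

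**Figure D3:**
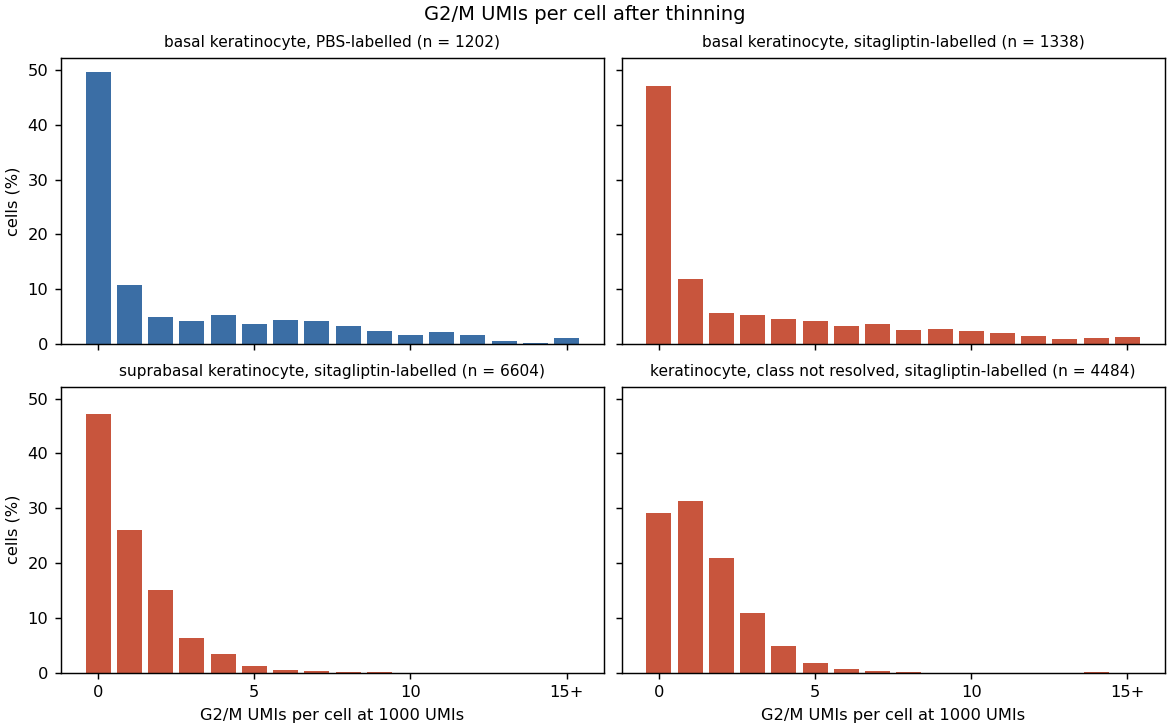
Share of cells in percent by number of G2/M UMIs after thinning to 1000 UMIs per cell, for basal keratinocytes of both libraries and for suprabasal and layer-unresolved keratinocytes of the sitagliptin-labelled library. Basal cells have a long tail past 5 UMIs (25.2% and 25.6% of cells), and the other panels fall off early (2.03% and 3.06%).

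The 17 G2/M genes were found in the same basal cells. For each member the share of its UMIs was taken in cells with at least 3 UMIs of other G2/M genes. In basal cells of the PBS-labelled library this share ran from 98.1% for Mki67 to 99.6% for Hmmr, a spindle assembly protein. The set of cells differs slightly by G2/M gene, as the gene's own UMIs are left out. It held 62.3% of all UMIs for Mki67 and 63.8% for Hmmr. For G1/S genes the set held 63.8%, and the share ran from 58.2% (Gins2) to 93.3% (Rrm2, the small subunit of ribonucleotide reductase). Ccnd2 had 42.1% and Ccnd1 56.3%, both below the share of all UMIs, and Cdkn1a had 63.4%. In the sitagliptin-labelled keratinocytes without a layer the G2/M genes had 45.6% to 60.5%, where those cells held 43.1% of all UMIs, so there the members were barely gathered. These shares describe the clustering of counts in cells, and deeper cells hold more of everything.

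Basal cells with at least 5 G2/M UMIs in the thinned counts were set against basal cells with 0, using only the UMIs that thinning had not drawn. The PBS-labelled library had 303 such cells (median 10958 UMIs), 597 with 0 (median 6808) and 302 between. As the split was made on G2/M counts, their ratios show its sharpness and nothing more, with a median of 28.9, lowest for Ccnb2 and highest for Aurka, a spindle pole kinase, at 78.9 (33.5 to 245). Mki67 stood at 1072 CPM in the upper, 456 in the middle and 51.6 in the lower group, and Top2a at 1246, 445 and 37.5. The D-type cyclins were lower in the cells rich in G2/M RNA. Ccnd2 stood at 173 CPM in the upper, 275 in the middle and 489 in the lower group, 2.82-fold lower in the upper than in the lower, and Ccnd1 at 111, 172 and 198 CPM (ratio 0.560, 0.493 to 0.635). The sitagliptin-labelled library gave ratios of 0.359 for Ccnd2 and 0.648 for Ccnd1, with 342 cells in the upper group. Cdkn1a had ratios of 0.966 (0.835 to 1.12) and 1.13 (0.939 to 1.36), so its interval included 1 in both. Krt14 and Krt5 had ratios of 0.982 and 1.06, and Krt1, which marks the step to the suprabasal layer, had 0.608.

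The G1/S genes were not uniform in this comparison, some being lower and some higher in cells rich in G2/M RNA. Gins2 (0.303), E2f1 (0.330), Ccne2 (0.430), Ccne1 (0.516), Mcm6 (0.578) and Cdt1 (0.582), which load or fire replication origins or drive S phase entry, were lower in the PBS-labelled library, each with an interval below 1. Rrm1 (3.42, 2.96 to 3.96), Rrm2 (2.59) and Tyms (2.58), which supply deoxynucleotides, were higher, as were Uhrf1 (1.44), which carries DNA methylation through replication, and Mcm7 (1.31). Mcm5 (0.929) and Pcna (0.997) had intervals that included 1. In the sitagliptin-labelled library Rrm1 (2.51), Tyms (2.38), Uhrf1 (2.47) and Rrm2 (1.76) were again higher and Gins2 (0.463) again lower, and Mcm5 was 1.49 (1.11 to 2.02). At least 2 G1/S UMIs were found in 12.4% of basal cells of the PBS-labelled library with 0 G2/M UMIs, in 27.2% of those with 1 to 4 and in 21.5% of those with 5 or more. The share was thus lowest in cells with 0 G2/M UMIs, and the intervals of the middle (22.2 to 32.5) and upper group (17.0 to 26.5) overlap. The shares in the sitagliptin-labelled library were 12.9%, 25.1% (20.7 to 29.8) and 20.8% (16.6 to 25.5).

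**Figure D4:**
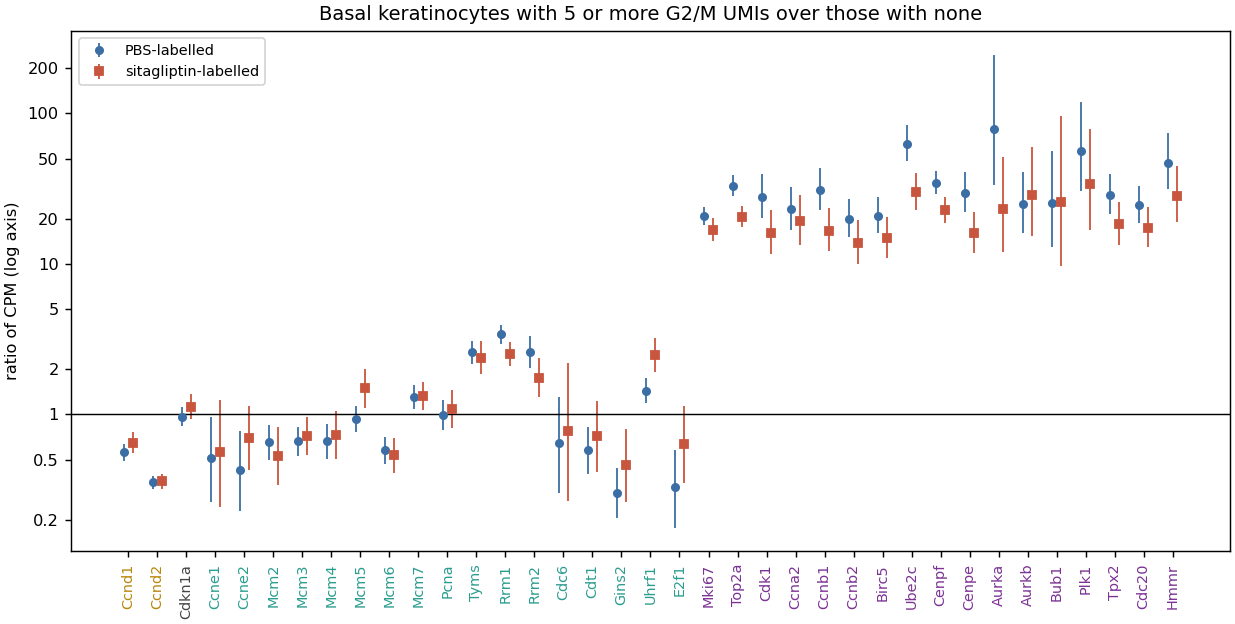
Ratio of CPM on a log axis between basal keratinocytes with at least 5 and with 0 G2/M UMIs, for each member in both libraries, with bars for the 95% counting interval and gene names coloured by role. D-type cyclins lie below 1, Cdkn1a near 1, G1/S genes between 0.303 and 3.42, and the G2/M genes, on which the split was made, at 13.8 or more.

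The pattern of the D-type cyclins was not shared by all classes. In macrophages or monocytes of the PBS-labelled library, with 28 cells in the upper and 841 in the lower group, Ccnd1 had a ratio of 0.936 and Ccnd2 of 0.982, while Rrm2 had 6.04 and Rrm1 4.70. Krt14 and Krt5 had 1.73 and 1.54 in the same macrophage split. In suprabasal cells of that library both D-type cyclins were at or above 1 (1.03 for Ccnd2 and 2.52 for Ccnd1), with Uhrf1 highest among the G1/S genes at 8.58, and Krt14 and Krt5 were 2.85 and 2.97 in the same split. In upper follicle cells Ccnd2 had 0.662, Ccnd1 0.831, Krt14 1.41 and Krt5 1.59. The part of keratinocyte RNA in these ratios was not tested. Differences between classes in these ratios were not tested.

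Genes outside the members that varied most like the sums over basal cells were taken by Pearson's r of log counts in the PBS-labelled library, among 3461 genes. For the G2/M sum they were Hmgb2 (r = 0.583), Stmn1 (0.548), Tubb4b (0.511), Prc1, H2afz, Arl6ip1, Ptma, Tubb5, Tuba1b and Cenpa (0.469). They encode chromatin proteins, tubulins, the central spindle protein Prc1 and the centromeric histone Cenpa, and 8 of the 10 were also among the 10 most alike in the sitagliptin-labelled library. For the G1/S sum they were Hist1h2ap (r = 0.345), Tubb5 (0.272), Pclaf (0.260), Lig1 (0.235), Hells, Tuba1b, Atad2, Dek, Smc2 and Dut (0.189), again with 8 of 10 in common. Hist1h2ap is a replication-dependent histone, Pclaf binds Pcna and Lig1 joins Okazaki fragments. The points are 1202 and 1338 cells of 1 library each, which share preparation and, after thinning, depth, and weak correlations in sparse counts are not read as findings.

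Between the libraries, basal keratinocytes labelled sitagliptin had a somewhat higher G2/M sum, and their G1/S sums differed by less than the counting error. The G2/M sum was 3734 CPM in the sitagliptin-labelled and 3186 CPM in the PBS-labelled library, a ratio of 1.17 (1.15 to 1.19), and the G1/S sum was 850 and 848 CPM, a ratio between 0.970 and 1.03. Krt14 and Krt5 together had a ratio of 1.10 in the same cells. Single G2/M genes ran from 0.980 for Plk1 to 1.43 for Top2a, with 13 of 17 intervals above 1 and 0 below. No share of all genes with such intervals is given, here or for the classes below. These counts of intervals are therefore description only. Of the G1/S genes 3 had intervals above 1 (Ccne2, Mcm7 and Pcna) and 4 below (Mcm2, Mcm5, Cdt1 and Gins2). Both D-type cyclins and Cdkn1a had intervals that included 1. By the 1.5-fold rule Ccne2 alone was past the limit, higher in the sitagliptin-labelled library, beside 3.09% of 11569 genes higher and 2.95% lower. The share of 1 in 37 members is near that background. Thinned to 1000 UMIs per cell, Ccne2 had a ratio of 0.993 (0.508 to 1.95), too few UMIs to show a direction.

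Suprabasal keratinocytes differed more, over classes filled by different clusters. The G2/M sum was 891 CPM in the sitagliptin-labelled and 662 CPM in the PBS-labelled library (1.34, 1.32 to 1.37), and the G1/S sum 337 and 295 CPM (1.14, 1.11 to 1.18). Krt14 and Krt5 together had a ratio of 1.14. Of the G2/M genes 15 of 17 had intervals above 1 and 0 below, from 0.988 for Plk1 to 1.55 for Top2a. By the 1.5-fold rule Ccne2 (12.9 against 5.28 CPM), Mcm7 (38.7 against 23.0 CPM) and Top2a (188 against 121 CPM) were higher in the sitagliptin-labelled library and 0 members lower, beside 3.65% of 13035 genes higher and 1.8% lower. The count and the sum depend on the scaling. With cells thinned to 1000 UMIs 25 members were past the limit and the G2/M ratio was 2.09, with the mean of each cell's CPM they were 24 and 2.04, and over all alternatives the count ran from 1 to 25. No share of all genes past the limit is given under the alternatives, so these counts are description only. Ccnd1 was higher (62.4 against 51.5 CPM, 1.21) and Cdkn1a lower (378 against 433 CPM, 0.873). Within the 4 suprabasal clusters with at least 50 cells in each library the G2/M ratio was 1.12, 1.75, 2.43 and 3.74, and over those clusters together 1.18, with a G1/S ratio of 0.994. The keratinocytes without a layer and the 2 clusters led by Dkkl1 and Ivl and by Hrnr and Lor had few PBS-labelled cells to compare with.

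In upper follicle keratinocytes the summed levels of the phases went apart between the libraries. The G1/S sum was 781 CPM in the sitagliptin-labelled and 696 in the PBS-labelled library (1.12, 1.09 to 1.15), and the G2/M sum 1613 and 1745 CPM (0.924, 0.907 to 0.942). The G2/M ratio ended at 1.01 when histone genes and genes correlated with the sums were also kept out of the clustering, or when cells with the highest doublet scores were left out. Of the G2/M genes 8 had intervals below 1, lowest Aurka at 0.773, and 1 above, Top2a at 1.13. By the 1.5-fold rule Ccne2 (26.9 against 9.78 CPM) and Mcm7 (114 against 65.9 CPM) were higher and 0 members lower, beside 2.25% of 12267 genes higher and 2.04% lower. Ccne2 and Mcm7 are part of the G1/S sum, and the median of the single G1/S ratios was 1.02. The count of Mcm7 is uncertain, as given below. Mcm6 (1.21), Pcna (1.26) and Rrm2 (1.29) also had intervals above 1, and Rrm1 (0.875) below. Ccnd2 stood at 421 against 489 CPM (0.861) and Cdkn1a at 160 against 183 CPM (0.874).

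**Figure D5:**
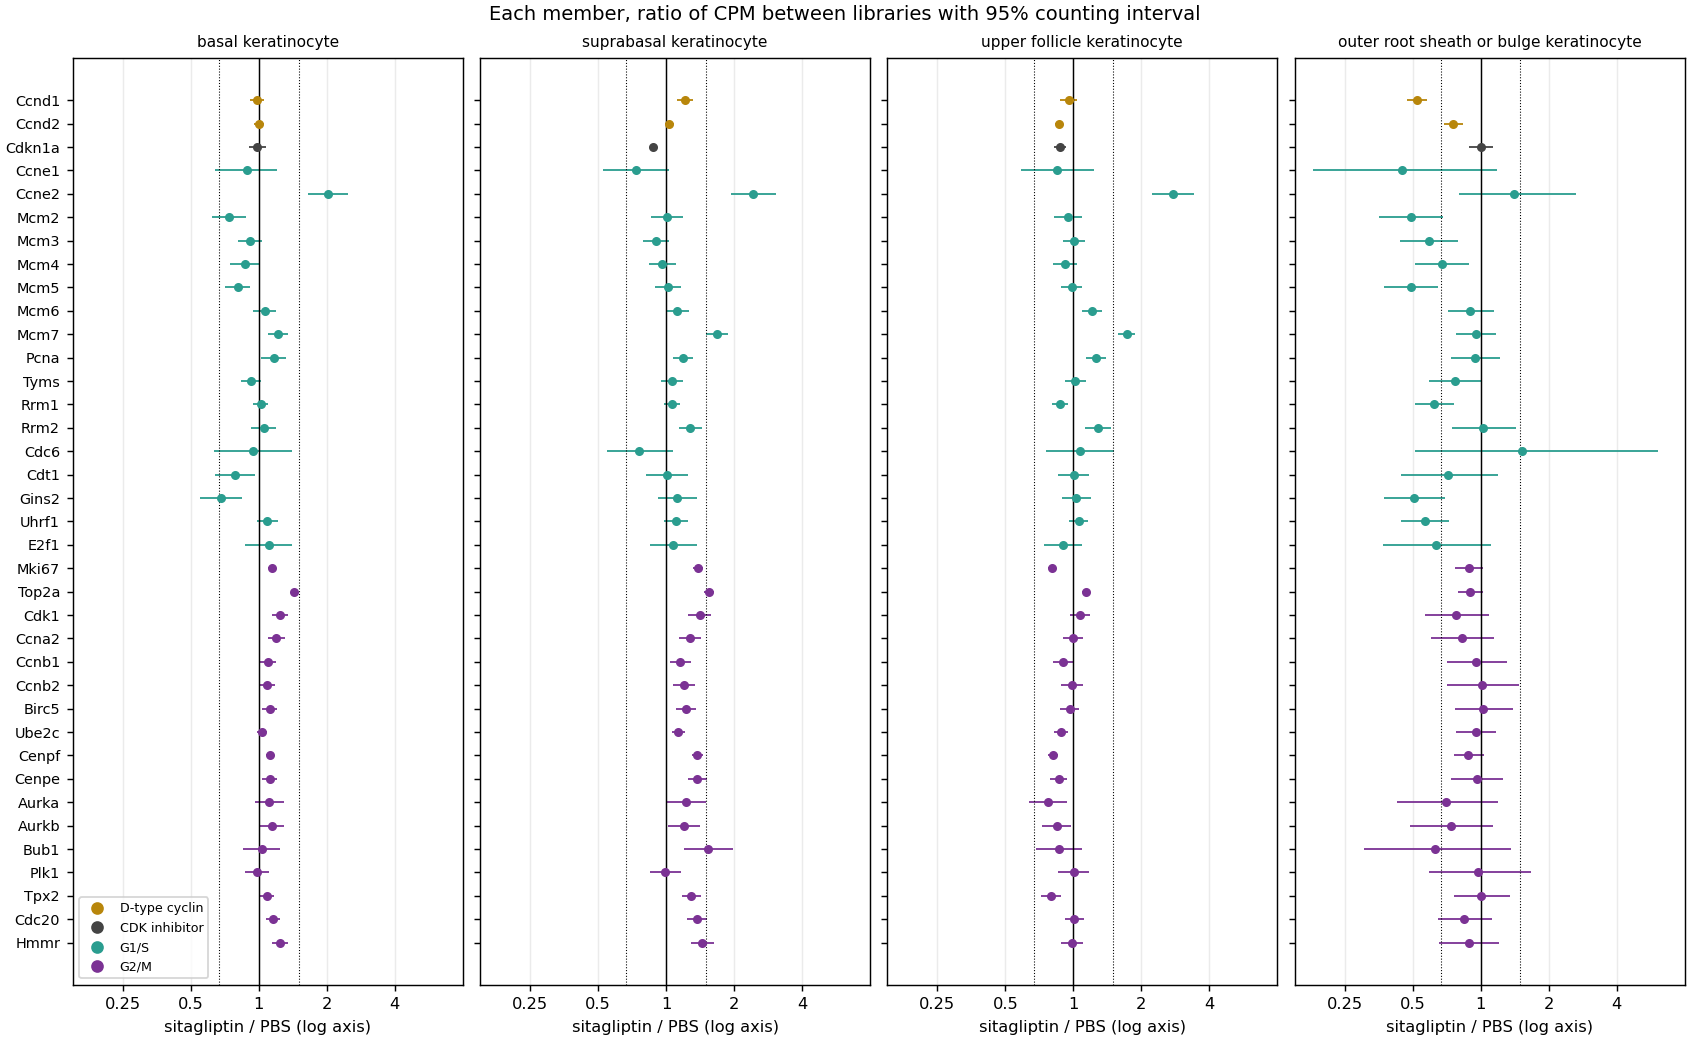
Ratio of CPM, sitagliptin-labelled over PBS-labelled, on a log axis for each of the 37 members in 4 keratinocyte classes, with bars for the 95% counting interval, a line at 1 and dotted lines at the 1.5-fold limits. Ccne2 lies right of 1.5 in basal, suprabasal and upper follicle cells (2.02, 2.44 and 2.75), and Ccnd1 and most Mcm genes lie left of 1 in outer root sheath/bulge cells.

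Ccne2 and Mcm7 were the members that stood highest in the sitagliptin-labelled library in more than 1 class. Ccne2, an E-type cyclin that activates Cdk2 at S phase entry (chr4:11191351-11204779, plus strand, GENCODE vM21 on mm10), stood at 29.6 against 14.6 CPM in basal cells, a ratio of 2.02 (1.64 to 2.49). In suprabasal cells its ratio was 2.44 (1.95 to 3.08) and in upper follicle cells 2.75 (2.22 to 3.42). In outer root sheath/bulge cells it was 1.41 with an interval of 0.800 to 2.64, which includes 1. Within clusters of at least 50 cells in each library and at least 20 UMIs its ratio was above 1 in 7 of 8, between 0.987 and 4.29. Ccne1, its close relative, had intervals that included 1 in all 4 classes, between 0.450 and 0.881. Mcm7, a helicase subunit (chr5:138164583-138172422, minus strand), had ratios of 1.21, 1.68, 1.72 and 0.952 in the 4 classes and lay above 1 in 11 of 12 clusters. Of the other 5 Mcm genes only Mcm6 had an interval above 1 in any class, in suprabasal (1.12) and upper follicle cells (1.21). Of the 31-base words at the 3′ end of Mcm7, 45.4% also occur in another gene, mostly in Gm5487, so its count is uncertain. Reads shared with other genes also concern Ccnb1 (40.2% of words), Cdc20 (22.6%), Rrm2 (21.8%), Tyms (15.8%), Plk1 (11.8%), Mki67 (11.0%) and Ube2c (10.9%). Top2a (chr11:98992943-99024189, minus strand) had ratios of 1.43, 1.55, 1.13 and 0.900 and lay above 1 in 11 of 12 clusters, between 0.495 and 8.46.

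Outer root sheath/bulge keratinocytes had lower levels of Ccnd1 and of several G1/S genes in the sitagliptin-labelled library, over a class filled by different clusters. Its cluster led by Krt75 held 375 sitagliptin-labelled and 17 PBS-labelled cells. In the cluster led by Fam13a, where Ccnd1 was above the basal level in both libraries, its ratio was 0.989 (0.839 to 1.17). In the clusters led by Krt24 and by Aspn it was 0.541 (0.448 to 0.656) and 0.460 (0.342 to 0.619). In the cluster led by Ramp1 it was 0.906 (0.451 to 1.94). Over the whole class Ccnd1 (chr7:144929931-144939925, minus strand) stood at 124 against 238 CPM, a ratio of 0.523 (0.472 to 0.580). The G1/S sum was 338 and 468 CPM (0.722, 0.674 to 0.774), and the G2/M sum 570 and 634 CPM (0.899, 0.849 to 0.953). Past 1.5-fold, 8 members were lower and 0 higher, beside 6.44% of 11731 genes lower and 7% higher. The count ran from 0 to 22 over the alternatives, for which no share of all genes is given. Besides Ccnd1 they were Ccne1 (0.450, with an interval that includes 1), Mcm2 (12.7 against 25.9 CPM), Mcm3 (17.2 against 29.1), Mcm5 (17.7 against 36.1), Rrm1 (39.8 against 63.6), Gins2 (14.0 against 27.5) and Uhrf1 (24.2 against 42.7). Ccnd2 had a ratio of 0.757 and Cdkn1a stood at 135 CPM in both libraries. All 17 G2/M genes had intervals that included 1. Krt14 and Krt5 together had a ratio of 1.24 in these cells.

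The sums in this class depend on how its cells were chosen, whereas Ccnd1 stayed below 1. The G1/S ratio turned to 1.10 when cells needed 1000 genes and 2000 UMIs, to 1.15 without the highest doublet scores and to 1.01 with the cell cycle genes kept in the clustering. The G2/M ratio ranged from 0.426 to 1.96. Within the 4 clusters with at least 50 cells in each library it was 0.582, 0.816, 0.850 and 8.95, the last in a cluster led by Ramp1 and Fgf18 with 59 PBS-labelled cells, at 486 against 54.3 CPM. Ccnd1 was below 1 under all 13 alternatives, between 0.458 and 0.733, and in 4 of 4 clusters, between 0.460 and 0.989, with 2 intervals below 1. Mcm5 and Gins2 were below 1 in 3 of 3 clusters with enough UMIs, Rrm1 in 4 of 4 and Mcm2 in 2 of 2.

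Other cell cycle genes were taken from lists of the same pathway and come from the same cells, so they are no independent support. Of 47 other G2 and M phase genes 42 had a ratio above 1 in basal cells (median log2 0.20, all genes 0.01), 46 in suprabasal (0.34, all genes 0.05), 18 in upper follicle (-0.06, all genes -0.01) and 15 in outer root sheath/bulge cells (-0.19, all genes -0.01). Past 1.5-fold, 2, 6, 0 and 1 were higher and 0, 0, 1 and 4 lower, where 3.09%, 3.65%, 2.25% and 7% of all genes were higher and 2.95%, 1.8%, 2.04% and 6.44% lower. The highest were in basal cells G2e3 (76.6 against 48.4 CPM) and in suprabasal cells Kif20b (25.9 against 14.9 CPM). Of 37 other S phase genes 14, 24 and 19 were above 1 in basal, suprabasal and upper follicle cells. No share of all genes above 1 is given in any of the 4 classes, so the counts above 1 are description only. In outer root sheath/bulge cells 4 of 35 were above 1 and 14 were lower by 1.5-fold, against 6.44% of all genes, lowest Asf1b, a histone chaperone, at 0.468. Lig1 was highest in suprabasal (39.6 against 26.5 CPM) and in upper follicle cells (113 against 70.1 CPM). Among 16 cell cycle transcription factors 0 were past 1.5-fold in basal, suprabasal and upper follicle cells, and 4 were lower in outer root sheath/bulge cells, lowest Mybl2, the B-Myb of the mitotic programme, at 0.379. Of 13 other cyclins and kinases tested 0 were past 1.5-fold in any of the 4 classes.

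The inhibitors and p53 targets around Cdkn1a did not move as a block with it between layers. In suprabasal over basal cells of the PBS-labelled library Cdkn2b, the inhibitor p15, was 17.4 against 1.49 CPM, and 4 of 13 p53 targets were higher by 1.5-fold and 2 lower, beside 13.4% and 22.5% of all genes, highest Zmat3 at 54.3 against 21.3 CPM. Cdkn3, which rises with mitosis, was 0.208 of the basal level, like the G2/M genes. In fibroblasts Cdkn1c, the inhibitor p57, was 27.4 against 3.24 CPM, and in macrophages the D-type cyclin Ccnd3 was 166 against 54.2 CPM and Mdm2 67.5 against 22.9 CPM. Between the libraries Trp53inp1 was the highest and Btg2 the lowest p53 target in basal (1.49 and 0.622), suprabasal (1.56 and 0.603) and upper follicle cells (1.54 and 0.661). Btg2 is also an immediate early gene that handling of tissue can raise, and its part in these ratios was not tested.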

How the data were processed

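Skin of 2 treatment groups was profiled with 10x Genomics single-cell RNA sequencing, 1 library each. The authors deposited raw UMI counts by gene and barcode. Cell Ranger 3.1.0 and mm10 come from the submitters' processing notes. The members and lists were chosen with earlier results of these data known. Each sample's group follows its treatment label. Groups hold 1 library, so no test was made.

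Barcodes were kept with at least 500 genes, 1000 UMIs and at most 10% mitochondrial UMIs. Counts scaled to 10000 per cell were log-transformed and both libraries clustered together on 2000 variable genes, without the members and other cell cycle genes, with 30 principal components, 15 neighbours and Leiden resolution 1 (scanpy 1.11.5, leidenalg 0.10.2, seed 1). Clusters were named from markers of 21 classes, and those that missed the rules stayed unnamed. Histone and cell cycle genes still led 1 basal and 1 upper follicle cluster, so a wider exclusion was added as an alternative after seeing the data. Scrublet marked 2 of 5932 and 0 of 18380 cells, so it did not work and doublets were not removed. Retained cells held 31719 and 40904 UMIs of G1/S genes and 80858 and 109948 of G2/M genes, and intervals of single members follow their counts.

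UMIs were summed per class and library and given as CPM, ratios with the exact conditional binomial 95% interval, shares with the exact Clopper-Pearson interval. A member was called by size alone, at least 1.5-fold apart with 1 CPM added and 20 UMIs in both groups together. All 37 members could be named, and of other lists the highest and lowest ratio. Genes alike to the sums needed 50 UMIs in basal cells. Cells were thinned without replacement to 1000 UMIs. The sums, ratios and thinning were tested on simulated data. Promoters are from RefSeq on GRCm38.p6, and those whose window overlaps an annotated exon were not printed. Gene positions and 3′ ends are from GENCODE vM21 on mm10. Further tools were Python 3.11.15, numpy 2.4.6, scipy 1.17.1, pandas 2.3.3, scikit-learn 1.9.0 and matplotlib 3.10.9. Alternatives changed the filters, doublets, depth, scaling, weights, clustering and thresholds.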

Additional observations from a re-analysis of the deposited data

Results flagged for a closer look

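Barcodes over the mitochondrial limit, which no comparison used, also held RNA of the members. The 4169 such barcodes of the PBS-labelled library had 421 CPM of G1/S and 842 CPM of G2/M RNA, and the 3700 of the sitagliptin-labelled library had 441 and 1070 CPM. These levels lie between those of suprabasal and upper follicle keratinocytes for both phases in the PBS-labelled library.

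The direction between libraries differed by class. The G1/S ratio of sitagliptin-labelled over PBS-labelled cells was 1.14 in suprabasal and 1.12 in upper follicle cells and 0.722 in outer root sheath/bulge cells. The G2/M ratio was 1.17 in basal and 1.34 in suprabasal cells, against 0.899 in the outer root sheath/bulge class and 0.924 in the upper follicle. With 1 library per treatment the difference between classes was not tested, and several of these directions reverse under other settings.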

How the results depend on the processing

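The G2/M ratio of basal cells between libraries stayed above 1 under all 13 alternatives (1.05 to 1.19), as did that of suprabasal cells (1.05 to 2.09), the G1/S ratio of upper follicle cells (1.05 to 1.27) and Ccne2 in suprabasal (1.68 to 4.27) and upper follicle cells (2.34 to 3.76). Ccnd1 in outer root sheath/bulge cells stayed below 1 (0.458 to 0.733). The 10 summed ratios to basal cells, of suprabasal, upper follicle, outer root sheath/bulge cells, macrophages and fibroblasts in the PBS-labelled library, stayed below 1 under all 12 alternatives. The moved or reversed sums, counts and shares follow, grouped by setting, and the cause was not tested. No share of all genes past the limit is given under these settings, so the counts of members are description only. Leaving out the barcodes found in both libraries, other pseudocounts (0.1 and 5 CPM) and no minimum of UMIs moved none of the sums, shares or counts. No paired analysis was possible because each group has 1 library. With 1 library per treatment, differences between animals, preparations, depth and treatment cannot be told apart, and members with few UMIs have wide intervals.

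With a minimum of 1000 genes and 2000 UMIs, the G1/S ratio between libraries was 1.1 in basal cells, 1.06 in suprabasal cells, 1.21 in upper follicle cells and 1.1 in outer root sheath/bulge cells (reversed). There, the G1/S ratio to basal cells was 0.317 in suprabasal cells, 0.61 in upper follicle cells, 0.339 in outer root sheath/bulge cells and 0.759 in macrophages. Likewise, the G2/M ratio between libraries was 0.968 in upper follicle cells and 1.48 in outer root sheath/bulge cells (reversed). In addition, the G2/M ratio to basal cells was 0.181 in suprabasal cells, 0.39 in upper follicle cells, 0.12 in outer root sheath/bulge cells and 0.242 in macrophages. With this setting, the count of members past the limit was 15 in outer root sheath/bulge cells. Under it, the shares of basal cells were 45.8% and 49.6%. Without the 8% of cells of highest doublet score, the G1/S ratio between libraries was 1.09 in basal cells, 1.27 in upper follicle cells and 1.15 in outer root sheath/bulge cells (reversed). By the same choice, the G1/S ratio to basal cells was 0.309 in suprabasal cells, 0.576 in upper follicle cells, 0.3 in outer root sheath/bulge cells, 0.784 in macrophages and 0.255 in fibroblasts. Then, the G2/M ratio between libraries was 1.5 in suprabasal cells, 1.01 in upper follicle cells (reversed) and 1.96 in outer root sheath/bulge cells (reversed). Here, the G2/M ratio to basal cells was 0.17 in suprabasal cells, 0.363 in upper follicle cells, 0.0854 in outer root sheath/bulge cells, 0.188 in macrophages and 0.0563 in fibroblasts. Also, the count of members past the limit was 9 in suprabasal cells, 4 in upper follicle cells and 17 in outer root sheath/bulge cells. There, the shares of basal cells were 44.2% and 47.2%. With the wider exclusion of genes from the clustering, added after seeing the data, the G1/S ratio between libraries was 1.07 in basal cells, 1.18 in suprabasal cells, 1.22 in upper follicle cells and 0.811 in outer root sheath/bulge cells. Likewise, the G1/S ratio to basal cells was 0.369 in suprabasal cells, 0.67 in upper follicle cells, 0.597 in outer root sheath/bulge cells, 0.917 in macrophages and 0.379 in fibroblasts. In addition, the G2/M ratio between libraries was 1.13 in basal cells, 1.44 in suprabasal cells and 1.01 in upper follicle cells (reversed). With this setting, the G2/M ratio to basal cells was 0.182 in suprabasal cells, 0.351 in upper follicle cells, 0.246 in macrophages and 0.127 in fibroblasts. Under it, the count of members past the limit was 6 in suprabasal cells and 5 in outer root sheath/bulge cells. With cells thinned to 1000 UMIs, the G1/S ratio between libraries was 1.07 in basal cells, 1.58 in suprabasal cells, 1.05 in upper follicle cells and 0.823 in outer root sheath/bulge cells. By the same choice, the G1/S ratio to basal cells was 0.89 in upper follicle cells and 0.451 in outer root sheath/bulge cells. Then, the G2/M ratio between libraries was 1.05 in basal cells, 2.09 in suprabasal cells, 0.896 in upper follicle cells and 1.16 in outer root sheath/bulge cells (reversed). Here, the G2/M ratio to basal cells was 0.18 in suprabasal cells, 0.562 in upper follicle cells, 0.128 in outer root sheath/bulge cells, 0.176 in macrophages and 0.0783 in fibroblasts. Also, the count of members past the limit was 0 in basal cells and 25 in suprabasal cells. With a 5% mitochondrial limit, the G1/S ratio between libraries was 0.96 in suprabasal cells (reversed), 1.16 in upper follicle cells and 0.836 in outer root sheath/bulge cells. There, the G1/S ratio to basal cells was 0.384 in suprabasal cells, 0.78 in upper follicle cells, 0.44 in outer root sheath/bulge cells and 0.777 in macrophages. Likewise, the G2/M ratio between libraries was 1.12 in basal cells, 1.05 in suprabasal cells, 0.841 in upper follicle cells and 0.426 in outer root sheath/bulge cells. In addition, the G2/M ratio to basal cells was 0.183 in suprabasal cells, 0.443 in upper follicle cells, 0.353 in outer root sheath/bulge cells, 0.19 in macrophages and 0.084 in fibroblasts. With this setting, the count of members past the limit was 1 in suprabasal cells and 22 in outer root sheath/bulge cells. Under it, the shares of basal cells were 61.3% and 54.1%. With totals that leave out mitochondrial, ribosomal and haemoglobin genes, the G1/S ratio to basal cells was 0.848 in upper follicle cells, 0.724 in macrophages and 0.283 in fibroblasts. By the same choice, the G2/M ratio between libraries was 1.14 in basal cells and 1.3 in suprabasal cells. Then, the G2/M ratio to basal cells was 0.566 in upper follicle cells, 0.228 in macrophages and 0.104 in fibroblasts. With the mean of each cell's CPM, the G1/S ratio between libraries was 1.63 in suprabasal cells, 1.08 in upper follicle cells and 0.795 in outer root sheath/bulge cells. Here, the G1/S ratio to basal cells was 0.316 in suprabasal cells and 0.455 in outer root sheath/bulge cells. Also, the G2/M ratio between libraries was 1.1 in basal cells, 2.04 in suprabasal cells, 0.948 in upper follicle cells and 1.03 in outer root sheath/bulge cells (reversed). There, the G2/M ratio to basal cells was 0.19 in suprabasal cells, 0.138 in outer root sheath/bulge cells, 0.187 in macrophages and 0.0869 in fibroblasts. Likewise, the count of members past the limit was 24 in suprabasal cells. With the cell cycle genes kept in the clustering, the G1/S ratio between libraries was 1.07 in suprabasal cells and 1.01 in outer root sheath/bulge cells (reversed). In addition, the G1/S ratio to basal cells was 0.36 in suprabasal cells, 0.781 in upper follicle cells and 0.331 in outer root sheath/bulge cells. With this setting, the G2/M ratio between libraries was 1.22 in outer root sheath/bulge cells (reversed). Under it, the G2/M ratio to basal cells was 0.197 in suprabasal cells, 0.515 in upper follicle cells, 0.0799 in outer root sheath/bulge cells and 0.24 in macrophages. By the same choice, the count of members past the limit was 2 in basal cells and 3 in outer root sheath/bulge cells. With a 2-fold in place of a 1.5-fold limit, the count of members past the limit was 0 in basal cells, 1 in suprabasal cells, 1 in upper follicle cells and 0 in outer root sheath/bulge cells. At a clustering resolution of 0.5, the G1/S ratio between libraries was 1.07 in suprabasal cells and 0.889 in outer root sheath/bulge cells. Then, the G1/S ratio to basal cells was 0.432 in outer root sheath/bulge cells. Here, the G2/M ratio between libraries was 1.27 in suprabasal cells. Also, the G2/M ratio to basal cells was 0.189 in outer root sheath/bulge cells and 0.248 in macrophages. There, the count of members past the limit was 4 in outer root sheath/bulge cells. At a resolution of 2, the G1/S ratio between libraries was 1.37 in suprabasal cells. Likewise, the G1/S ratio to basal cells was 0.266 in suprabasal cells, 0.779 in upper follicle cells, 0.51 in outer root sheath/bulge cells and 0.587 in macrophages. In addition, the G2/M ratio between libraries was 1.72 in suprabasal cells and 0.888 in upper follicle cells. With this setting, the G2/M ratio to basal cells was 0.145 in suprabasal cells, 0.566 in upper follicle cells, 0.184 in macrophages and 0.105 in fibroblasts. Under it, the count of members past the limit was 17 in suprabasal cells. With clusters weighted equally, the G1/S ratio between libraries was 1.21 in suprabasal cells and 0.852 in outer root sheath/bulge cells. By the same choice, the G1/S ratio to basal cells was 0.24 in suprabasal cells, 0.682 in upper follicle cells, 0.386 in outer root sheath/bulge cells, 0.618 in macrophages and 0.246 in fibroblasts. Then, the G2/M ratio between libraries was 1.39 in suprabasal cells and 0.905 in upper follicle cells. Here, the G2/M ratio to basal cells was 0.154 in suprabasal cells, 0.517 in upper follicle cells, 0.152 in outer root sheath/bulge cells, 0.21 in macrophages and 0.0976 in fibroblasts. Also, the count of members past the limit was 7 in suprabasal cells and 3 in outer root sheath/bulge cells. Over clusters with at least 50 cells in each library, added after seeing the data, the G1/S ratio between libraries was 0.994 in suprabasal cells (reversed). There, the G2/M ratio between libraries was 1.18 in suprabasal cells and 0.78 in outer root sheath/bulge cells. Likewise, the count of members past the limit was 1 in suprabasal cells and 13 in outer root sheath/bulge cells. In place of at least 2 G2/M UMIs at 1000, the shares of basal cells (PBS-labelled, then sitagliptin-labelled) were 50.3% and 53% with at least 1 G2/M UMI, 34.7% and 35.5% with at least 3, 25.2% and 25.6% with at least 5, 7.49% and 9.04% with at least 10 and 46.9% and 49.6% with at least 2 after thinning to 2000 UMIs; the limits of 5 and 10 were added after seeing the data. Single members that reversed were Ccne2 in basal cells (0.993, cells thinned to 1000 UMIs), Mcm3 in outer root sheath/bulge cells (1.92, cells thinned to 1000 UMIs), Rrm1 in outer root sheath/bulge cells (1.12, at least 1000 genes and 2000 UMIs), Uhrf1 in outer root sheath/bulge cells (1.27, cell cycle genes kept in clustering), Uhrf1 in outer root sheath/bulge cells (1.39, at least 1000 genes and 2000 UMIs) and Uhrf1 in outer root sheath/bulge cells (2.1, without highest doublet scores). Ccne1 in outer root sheath/bulge cells (0.45), whose interval includes 1, was 2 without the highest doublet scores and 1.06 at a resolution of 0.5. Other single members kept their direction but moved beyond the interval under some of 13 alternatives, most often Top2a in suprabasal cells (7, 1.26 to 2.51), Ccnd1 (7) and Mcm5 (7, 0.467 to 0.962) in outer root sheath/bulge cells and Mcm7 in suprabasal cells (5, 1.44 to 2.48).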
